A study of Mus musculus with 2 samples.

Results

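Cytotoxic T and NK-like lymphocytes made up 98 of 3576 cell barcodes kept in 2 single-cell RNA sequencing libraries of CD11c-selected cells taken from the tumour microenvironment of PyMT mice of the strain C57BL/6N. The polyoma middle T antigen gives these mice mammary tumours. CD11c, the product of Itgax, is a surface integrin found on dendritic cells, on macrophages and on some NK and T cells. Both libraries are labelled WT and as myeloid cells. They form a single group of replicate 1 and replicate 2, with no treated or mutant group to set it against. The sources used here give neither the promoter of the transgene nor the age of the mice. Nor do the labels say whether each library is a separate animal, so the spread between libraries may be technical.

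Each library gives the number of UMIs (molecular tags that let each captured transcript be counted a single time) per gene and barcode. A barcode was taken as a lymphocyte if it had at least 1000 UMIs, at most 10% of them from mitochondrial genes, at least 3 UMIs over Nkg7, Ctsw, Xcl1 and Il2rb, under 0.3% of UMIs from Lyz2 and under 0.1% from C1qa, C1qb and C1qc. These values chose the cells. Differences between the lymphocytes and the other barcodes are therefore given as descriptions, with no test. The lymphocytes were also split by Cd3g, which encodes the gamma chain of CD3, into 36 Cd3g-positive cells with at least 1 Cd3g UMI and 62 Cd3g-zero cells. That split likewise used the data, so the values of both subsets are set side by side without a test.

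T cells recognise antigen through a receptor whose signal runs through the CD3 chains, and CD8 T cells add the coreceptor encoded by Cd8a and Cd8b1. NK cells lack that receptor and read activating and inhibitory lectin-like receptors of the Klr families instead, several of which signal through the adaptors encoded by Tyrobp and Hcst. Both kinds of cell kill by releasing granules that hold granzymes and perforin. In the PyMT tumour model, cytotoxic innate lymphoid cells and innate-like T cells that share NK receptors have been described beside conventional CD8 T cells.

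Lymphocytes were 56 of 2245 kept barcodes in replicate 1, which is 2.49% with an exact 95% binomial interval of 1.89% to 3.23%. They were 42 of 1331 in replicate 2, which is 3.16% with an interval of 2.28% to 4.24%. The intervals overlap, and the mean was 2.82% ± 0.467 (SD, n = 2). Intervals here and below cover counting error only. The Cd3g-positive cells were 19 of 56 lymphocytes in replicate 1 and 17 of 42 in replicate 2, a mean share of 37.2% ± 4.63 (SD, n = 2). Detection of a single gene depends on depth. With each cell thinned to 1000 UMIs the expected Cd3g-positive share was 22.6%, and with any UMI of Cd3g, Cd3d or Cd3e it was 44.9%. Of the other barcodes, 11 of 2189 in replicate 1 and 13 of 1289 in replicate 2 had a Cd3g UMI, which is 0.503% and 1.01%, although their median depth was higher.

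The libraries held 17369071 and 13317214 UMIs. Lymphocytes had a median of 3286.5 UMIs in replicate 1 and 3809 in replicate 2, against 5167 and 6922 in all other kept barcodes. The subsets were of like depth: medians were 3408 and 3709 UMIs in Cd3g-positive cells, against 3281 and 3880 in Cd3g-zero cells. No cell barcode was shared between the lymphocytes of both libraries (2 were shared among all kept barcodes). Levels are given as CPM, UMIs of a gene scaled to a common total (counts per 1e6 UMIs), summed over the cells of a subset in a library. A gene with 0 UMIs in the 19 or 17 Cd3g-positive cells may still reach 40.1 or 37.1 CPM, the level at which 3 UMIs would be counted.

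The rule reached well past its limit in most cells. The 4 selecting genes together had a median of 17 UMIs per lymphocyte, with a range of 3 to 140, and 73 of 98 cells had 10 or more. Just inside the limit, at 3 or 4 UMIs, lay 2 cells of replicate 1 and 1 of replicate 2. Just outside it, at 2 UMIs, lay 1 and 2 barcodes that met the other limits. A further 14 and 3 barcodes had enough UMIs of the selecting genes but exceeded a myeloid limit, and they held 189 and 75 UMIs of Gzmc.

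The label was set beside marker genes. The 6 lymphocyte markers Nkg7, Ctsw, Xcl1, Il2rb, Gzmc and Cd3g summed to 8178 and 9999.6 CPM in lymphocytes, against 42.0 and 22.1 CPM in all other barcodes and 99.7 and 164 CPM in free RNA, the RNA outside cells as read from barcodes of at most 50 UMIs. All 4 selecting genes are in that sum, so its excess was fixed by the rule. Gzmc and Cd3g did not choose the cells, but both were given with the rule as markers, and Cd3g split the lymphocytes. Their levels are therefore a description as well, not separate support for the label. Gzmc had 2252 and 3625 CPM in lymphocytes, against 15.0 and 8.61 CPM in all other barcodes. Cd3g had 269 and 384 CPM in lymphocytes, against 3.18 and 4.05 CPM in all other barcodes and 6.87 and 24.0 CPM in free RNA. The word cytotoxic rests on Nkg7 and Ctsw, granule genes of the rule, and on granzymes that a minority of cells showed. Gzma was seen in 23, Gzmb in 29 and Gzmc in 22 of the 98 lymphocytes. The word does not rest on perforin: Prf1, which encodes perforin, had 0 UMIs in the 98 lymphocytes and 1 UMI in all 3576 kept barcodes. A count of 0 allows a share of up to 3.06% of lymphocytes with a Prf1 UMI. The 7 T cell receptor constant genes sought (Trac, Trbc1, Trbc2, Trdc, Tcrg-C1, Tcrg-C2 and Tcrg-C4) have no row in the tables used here, so alpha-beta and gamma-delta receptors were not told apart.

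Markers of other cell types were mostly low but not all at 0. The B cell markers Cd79a, Cd79b and Ms4a1 and all 4 erythroid markers had 0 UMIs in lymphocytes. Of 11 macrophage markers, 9 were detected, with Adgre1 and Fcgr1 at 0, and the list summed to 1248 and 746 CPM in lymphocytes, against 20006.5 and 24747 CPM in free RNA. Lyz2, C1qa, C1qb and C1qc are in that sum and were limited by the rule, so part of this gap was fixed in advance. Of 8 dendritic markers, 5 were detected, with Clec9a, Fscn1 and Siglech at 0, and their sum was 145 and 74.6 CPM in lymphocytes, against 1566 and 1480 CPM in dendritic barcodes. Those barcodes were chosen by Flt3, Zbtb46, Cd209a, Xcr1 and Clec9a, which are in the sum, so their excess was fixed by that choice. Free RNA held 234 and 426 CPM of the dendritic list. Epithelial markers summed to 137 and 90.6 CPM in lymphocytes, against 11279 and 6274 CPM in free RNA. Fibroblast markers summed to 8.55 and 21.3 CPM in lymphocytes, against 411 and 690 CPM in free RNA. Neutrophil markers summed to 4.27 and 0 CPM, against 69.2 and 276 CPM in free RNA. The mast cell markers went the other way. Kit alone was detected, at 34.2 and 32.0 CPM in lymphocytes, against 16.0 and 21.7 CPM for the list in all other barcodes.

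High counts of class II transcripts lay in few lymphocytes. H2-Aa, an antigen-presenting chain of dendritic cells and macrophages, was seen in 29 of 56 and 26 of 42 lymphocytes, with a median of 2 and 1.5 UMIs per positive cell. It had 10 or more UMIs in 7 lymphocytes of replicate 1 and 2 of replicate 2. Those cells held 92.8% and 52.8% of all H2-Aa UMIs of the lymphocytes, and their median depth was 10517 and 8079.5 UMIs, against 3115 and 3725 in the remaining lymphocytes. The highest Scrublet doublet scores took in 1 lymphocyte of each library. Whether the class II-rich cells are pairs of cells in a droplet was not tested, and for the main pairs of genes the counts of cells with both are given below with and without them. This limit of 10 was chosen after values were seen.

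Itgax itself did not set the lymphocytes apart from their surroundings. It had 98.3 and 90.6 CPM in lymphocytes, against 96.5 and 117 CPM in all other barcodes and 74.1 and 110 CPM in free RNA. Split by Cd3g, the level was 80.3 and 49.5 CPM in Cd3g-positive cells and 107 and 122 CPM in Cd3g-zero cells. The counts behind this are small, with 27 of 98 lymphocytes holding 1 to 3 UMIs each.

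**Figure D1:**
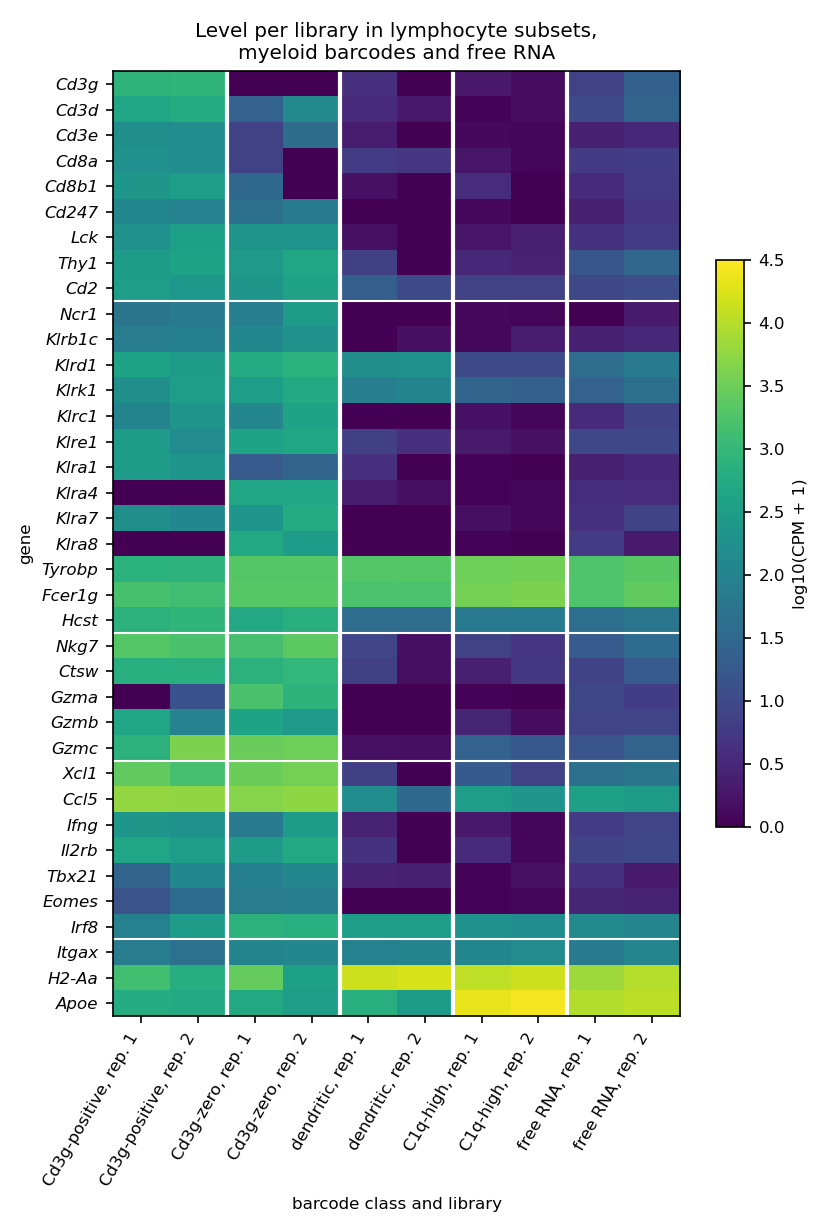
Level of 37 genes, as log10(CPM + 1), in rows, by barcode class and library in columns: Cd3g-positive and Cd3g-zero lymphocytes, dendritic barcodes, C1q-high (macrophage) barcodes and free RNA. Klra4, Klra8 and Gzma are dark in Cd3g-positive and bright in Cd3g-zero cells of both libraries, Cd8a and Cd8b1 show the opposite, and Tyrobp and Fcer1g are bright in myeloid barcodes too.

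The genes furthest above the other barcodes outside the lists and the selecting genes are given as a description, since a minimum of UMIs in the lymphocytes chose them. Of 815 genes with at least 50 UMIs in lymphocytes, 123 (15.1%) were at least 2-fold higher in both libraries and 49 (6.01%) at least 2-fold lower. Ms4a4b, a tetraspanning membrane protein of T cells, led them with 171 and 624 CPM in lymphocytes, against 2.80 and 2.28 CPM in the other barcodes. Gimap5 and Gimap6, small GTPases of lymphocyte survival, followed, with Rgs16 ranked between them by mean log2 ratio. Gimap6 had 192 and 357 CPM in lymphocytes, against 4.09 and 4.56 CPM in the other barcodes. Ctla2a, a cysteine protease inhibitor first found in activated T cells, had 1226 and 1599 CPM in lymphocytes, against 16.2 and 35.7 CPM elsewhere and 58.9 and 99.9 CPM in free RNA. It was detected in 86 of 98 lymphocytes. The others were Rgs16, Car2, Pglyrp1, Vgll4, Gem and Vps37b, with mean log2 ratios between 3.13 for Vps37b and 6.53 for Rgs16.

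Between the subsets, most genes lay close together. Of 1946 genes other than Cd3g with at least 20 UMIs in lymphocytes, 22 (1.13%) were at least 2-fold higher in Cd3g-positive cells in both libraries. Another 32 (1.64%) were at least 2-fold lower in both libraries, and the median log2 ratio over all 1946 genes was -0.04. Ratios use a prior of 1 UMI per sum.

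The CD3 chains followed the split gene. Cd3d had 468 and 607 CPM in Cd3g-positive cells, against 25.1 and 140 CPM in Cd3g-zero cells. Cd3e had 174 and 161 CPM in Cd3g-positive cells and 6.28 and 37.4 CPM in Cd3g-zero cells. In each library both summed levels were higher in the Cd3g-positive cells. Single cells did overlap between the subsets, as Cd3d was seen in 25 and Cd3e in 16 of the 36 Cd3g-positive cells. The 3 genes are neighbours on chromosome 9 (GRCm38, Cd3g at chr9:44969572-44980431). Of 62 Cd3g-zero cells, 7 had a Cd3d UMI and 3 a Cd3e UMI. In replicate 2, 9 of the 15 Cd3d UMIs of Cd3g-zero cells lay in 1 cell. Free RNA held 8.84 and 27.3 CPM of Cd3d, below the Cd3g-zero level of each library.

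Lat, the adaptor that the T cell receptor phosphorylates, had 174 and 173 CPM in Cd3g-positive cells, against 69.0 and 56.2 CPM in Cd3g-zero cells. Cd247, the zeta chain that NK cells use as well, had 120 and 99.0 CPM in Cd3g-positive cells, against 43.9 and 74.9 CPM in Cd3g-zero cells. The gap for Cd247 was under 2-fold in replicate 2. Cd27, a costimulatory receptor of T and NK cells, was close in both subsets, at 147 and 223 CPM in Cd3g-positive cells and 100 and 187 CPM in Cd3g-zero cells. Cd28 went opposite ways, at 134 and 24.8 CPM in Cd3g-positive cells, against 18.8 and 84.2 CPM in Cd3g-zero cells. The T cell receptor list had 22 genes, of which 15 had a row and 6, not counting Cd3g, had at least 20 UMIs. Of those 6, 3 were at least 2-fold higher in Cd3g-positive cells in both libraries (Cd3d, Cd3e and Lat) and 0 lower, with a median log2 ratio of 1.16. The shares over all genes were 1.13% higher and 1.64% lower. Summed without Cd3g, the list had a log2 ratio of 2.34 in replicate 1 and 1.13 in replicate 2, a mean of 1.73 ± 0.86 (SD, n = 2).

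Signalling genes that T and NK cells share were measured in both subsets. Lck, the kinase that starts receptor signalling, had 187 and 347 CPM in Cd3g-positive cells and 213 and 215 CPM in Cd3g-zero cells. Thy1, a surface glycoprotein of T cells and activated NK cells, had 308 and 409 CPM in Cd3g-positive cells, against 270 and 468 CPM in Cd3g-zero cells. All 16 genes of this list had at least 20 UMIs, and 1 of them differed at least 2-fold in both libraries. Over all genes the shares were 1.13% higher and 1.64% lower, so a low count is usual for a list of this size. The gene was Txk, a Tec-family kinase, at 93.7 and 124 CPM in Cd3g-positive cells and 232 and 374 CPM in Cd3g-zero cells.

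CD8 chains marked a portion of the Cd3g-positive cells. Cd8b1 had 241 and 322 CPM in Cd3g-positive cells, against 31.4 and 0 CPM in Cd3g-zero cells. Cd8a had 187 and 161 CPM in Cd3g-positive cells, against 6.28 and 0 CPM in Cd3g-zero cells. Over both libraries Cd8b1 had 44 UMIs in Cd3g-positive and 5 in Cd3g-zero cells, a ratio of 15.1 with an exact 95% counting interval of 5.99 to 48.7. Cd8a had 27 UMIs in Cd3g-positive cells and 1 in Cd3g-zero cells. Apart from Cd3g, these were the 2 largest ratios in that direction with the prior added. A UMI of either chain was found in 18 lymphocytes, of which 16 were Cd3g-positive, so 20 of the 36 Cd3g-positive cells showed neither chain. The 2 Cd3g-zero cells with a CD8 chain each had 2 UMIs of Cd3d. With the class II-rich cells left out, 15 of 16 were Cd3g-positive. Among dendritic and C1q-high barcodes, Cd8b1 was seen in 0 to 4 barcodes per library and class, at most 0.452% of them, at higher median depths.

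Of the helper and regulatory genes, several were not detected. Cd4, Foxp3, Cd40lg and Izumo1r had 0 UMIs in lymphocytes of both libraries. These 4 were named after their values were seen. Summed over both libraries, a count of 0 allows up to 7.11 CPM. Ikzf2, a zinc-finger factor of regulatory and innate-like lymphocytes, was present in both subsets, at 147 and 111 CPM in Cd3g-positive cells and 107 and 178 CPM in Cd3g-zero cells.

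NK receptors were found on both sides of the split. Ncr1, which encodes the activating receptor NKp46, had 53.5 and 74.3 CPM in Cd3g-positive cells, against 81.6 and 281 CPM in Cd3g-zero cells. Klrb1c, which encodes NK1.1, had 80.3 and 86.7 CPM in Cd3g-positive cells, against 126 and 206 CPM in Cd3g-zero cells. Both genes were lower in Cd3g-positive cells of each library, and the 2-fold mark was passed in replicate 2 only. A UMI of Ncr1 or Klrb1c was found in 52 lymphocytes, 14 of them Cd3g-positive, while the other barcodes held under 1 CPM of each gene.

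None of those 52 cells had a UMI of Cd8a or Cd8b1. The 18 cells with a CD8 chain thus had 0 with Ncr1 or Klrb1c, which allows a share of up to 16.7% at a median depth of 3271.5 UMIs. Without the 9 class II-rich cells the counts were 16 cells with a CD8 chain, 48 with Ncr1 or Klrb1c and again 0 with both. At this depth a missing UMI does not show that a cell lacks the transcript.

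**Figure D2:**
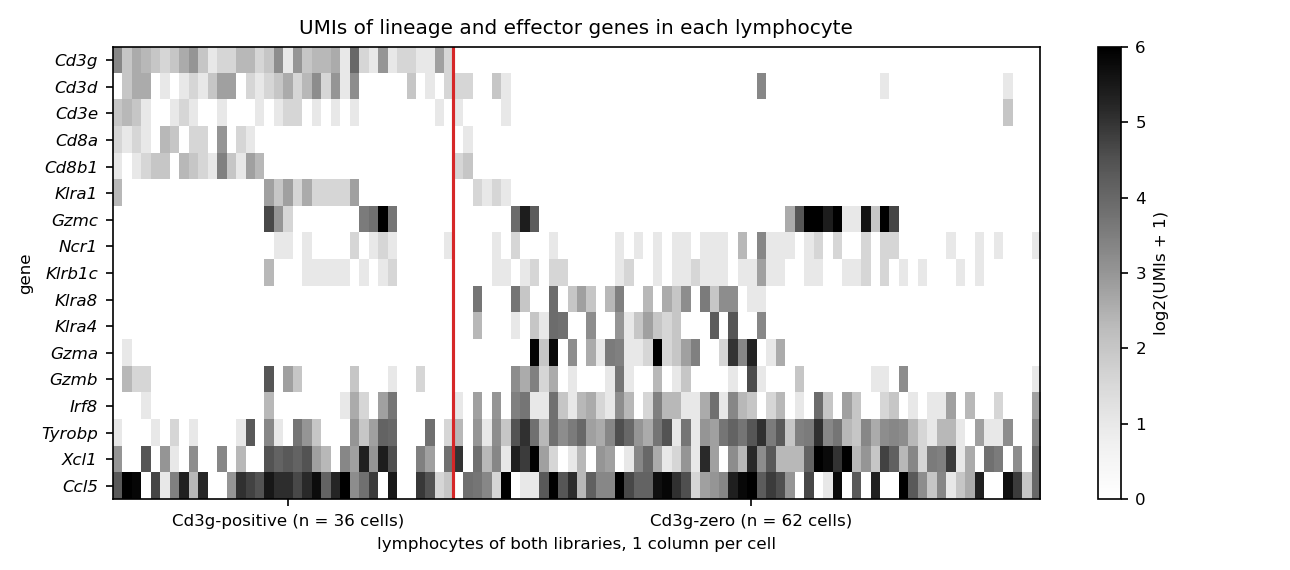
UMIs of 17 genes, as log2(UMIs + 1) in grey, in each of the 98 lymphocytes, 1 column per cell, with 36 Cd3g-positive cells left of the red line and 62 Cd3g-zero cells right of it. Columns are sorted by CD8 chains, then Klra1, then Klra4, Klra8 or Gzma, then Gzmc, so the blocks of these genes are set by the sorting; the 18 cells with a CD8 chain show no Ncr1 or Klrb1c, and Klra4 and Klra8 are blank in all Cd3g-positive cells.

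The Klra genes encode the Ly49 receptors for class I molecules of the major histocompatibility complex, and Klra4 and Klra8 were seen in Cd3g-zero cells alone. Klra4, the activating receptor Ly49D, had 0 UMIs in Cd3g-positive cells of both libraries, against 69 and 47 UMIs (433 and 440 CPM) in Cd3g-zero cells. Klra8, the activating receptor Ly49H, had 0 UMIs in Cd3g-positive cells as well, against 87 and 32 UMIs (546 and 299.5 CPM) in Cd3g-zero cells. Set against a floor of 3 UMIs over both libraries, the levels in Cd3g-positive cells were at least 22.6-fold lower for Klra4 and at least 23.2-fold lower for Klra8. A bound of this kind takes the counts of the Cd3g-zero cells as exact. Either gene was seen in 25 cells, all Cd3g-zero, and all 25 had a UMI of Tyrobp, the adaptor through which both receptors signal. Tyrobp was seen in 58 of all 62 Cd3g-zero cells, so this overlap is close to the rate of the whole subset. Among the 25 was 1 cell of replicate 2 with 9 UMIs of Cd3d, 9 of Klra4 and 1 of Klra8. A Cd3g count of 0 thus did not mean that all 25 lacked CD3 chain transcripts. Without the class II-rich cells 22 cells had either gene, again all Cd3g-zero and all with Tyrobp. The cells were unequally spread, with 19 in replicate 1 and 6 in replicate 2.

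Klra1, the inhibitory receptor Ly49A, had the opposite distribution. It had 294 and 223 CPM in Cd3g-positive cells, against 18.8 and 28.1 CPM in Cd3g-zero cells, a mean log2 ratio of 3.13 ± 0.68 (SD, n = 2). Of 15 cells with a Klra1 UMI, 11 were Cd3g-positive, and 5 and 6 of these came from replicate 1 and replicate 2. Among the 15, 11 also had Ncr1 or Klrb1c, 12 had Klra7, and 1 had a CD8 chain. Without the class II-rich cells there were 14 cells with Klra1, of which 10 were Cd3g-positive, 11 had Ncr1 or Klrb1c, 11 had Klra7 and 1 had a CD8 chain. So the Cd3g-positive cells with Klra1 and those with a CD8 chain were largely separate cells. Free RNA held 1.47 and 2.23 CPM of Klra1, and the other barcodes held 0.454 and 0 CPM.

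The remaining Ly49 genes showed no shared direction. Klra7, the inhibitory receptor Ly49G, had 174 and 124 CPM in Cd3g-positive cells, against 226 and 580 CPM in Cd3g-zero cells. Klra9 had 107 and 161 CPM in Cd3g-positive cells and 94.2 and 243 CPM in Cd3g-zero cells. Klra3 and Klra5 each rested on 1 library: Klra3 had 33 UMIs in Cd3g-zero cells of replicate 1 and 0 in those of replicate 2, and Klra5 had 16 UMIs in 2 Cd3g-positive cells of replicate 1. The Klra genes are close copies of each other on chromosome 6 (GRCm38, Klra4 at chr6:130043731-130067271 and Klra1 at chr6:130363917-130386874), so counts of single members are uncertain where reads fit several.

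Lectin-like receptors of the NKG2 group were higher in Cd3g-zero cells by less. Klrd1, which encodes CD94, had 415 and 310 CPM in Cd3g-positive cells, against 590 and 740 CPM in Cd3g-zero cells. It was found in 40 of 56 and 31 of 42 lymphocytes, but also in 100 of 221 and 111 of 208 dendritic barcodes, and in 3.30% and 3.90% of C1q-high barcodes. Klrk1, which encodes NKG2D, had 174 and 334 CPM in Cd3g-positive cells, against 326 and 571 CPM in Cd3g-zero cells. Klrc1, which encodes the inhibitory partner NKG2A, had 107 and 211 CPM in Cd3g-positive cells, against 119 and 384 CPM in Cd3g-zero cells. Klre1, a partner of other Klr chains, had 294 and 149 CPM in Cd3g-positive cells and 414 and 496 CPM in Cd3g-zero cells. None of these 4 genes passed 2-fold in both libraries.

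The adaptors differed between the subsets in opposite directions. Tyrobp, which encodes DAP12, had 736 and 792 CPM in Cd3g-positive cells, against 2096 and 2069 CPM in Cd3g-zero cells. It was seen in 18 of 36 Cd3g-positive cells and in 58 of 62 Cd3g-zero cells. Tyrobp is also a myeloid gene, at 3194 and 3539 CPM in C1q-high barcodes and 1850 and 2269 CPM in free RNA. Hcst, which encodes DAP10, the adaptor of NKG2D, was slightly higher in Cd3g-positive cells, at 763 and 867 CPM, against 527 and 674 CPM in Cd3g-zero cells. It stood above the myeloid level in both subsets, since C1q-high barcodes had 67.2 and 66.3 CPM. Of 27 genes of the NK receptor list, 21 had at least 20 UMIs. Of those, 1 was at least 2-fold higher in Cd3g-positive cells in both libraries (Klra1) and 5 at least 2-fold lower (Klra4, Klra8, Klri2, Klrb1b and Tyrobp), with a median log2 ratio of -0.85. Beside these counts, 1.13% of all genes were higher and 1.64% lower. The summed list had a log2 ratio of -0.72 in replicate 1 and -0.99 in replicate 2.

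**Figure D3:**
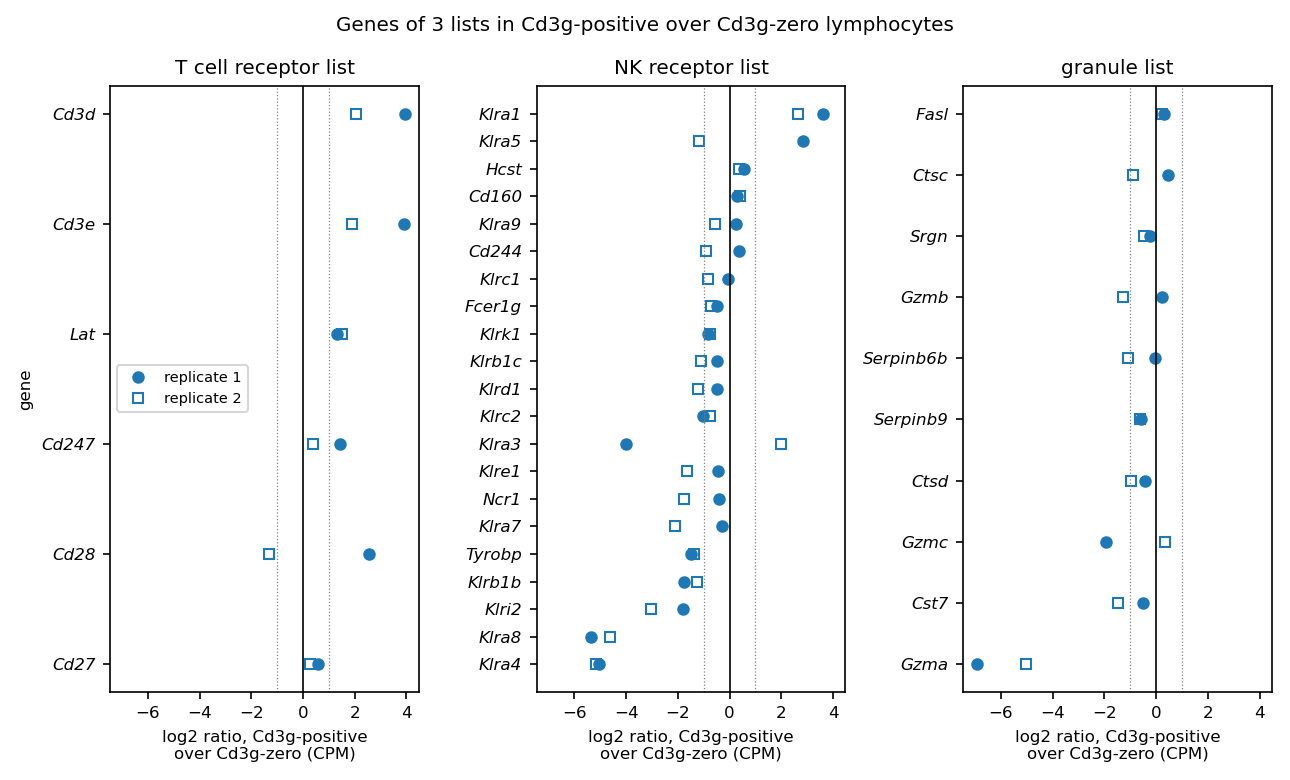
Log2 ratio of CPM in Cd3g-positive over Cd3g-zero lymphocytes (x axis). Genes are those of the T cell receptor, NK receptor and granule lists with at least 20 UMIs, without Cd3g, Nkg7 and Ctsw. Filled circles stand for replicate 1 and open squares for replicate 2, with dotted lines at 2-fold. Cd3d, Cd3e and Lat lie right of the upper line in both libraries, as does Klra1, while Klra4, Klra8 and Gzma lie furthest left, where the size of the ratio depends on the prior of 1 UMI.

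Of the granzymes, Gzma lay almost wholly in Cd3g-zero cells. Gzma, a tryptase of cytotoxic granules, had 0 and 12.4 CPM in Cd3g-positive cells, against 1613 and 805 CPM in Cd3g-zero cells. Behind the Cd3g-positive values stood 1 UMI in 1 cell, and behind the Cd3g-zero values 257 and 86 UMIs in 16 and 6 cells. Over both libraries the level was 200.4-fold lower in Cd3g-positive cells, with an exact 95% counting interval of 35.7-fold to 7938-fold. This value rests on that 1 UMI, and with no UMI of Klra4 or Klra8 in Cd3g-positive cells the 3 genes cannot be ranked. Free RNA held 8.35 and 5.58 CPM of Gzma.

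Gzmc, a granzyme of activated cytotoxic cells, was carried by few cells at high counts. It had 763 and 4123 CPM in Cd3g-positive cells, against 2950 and 3248 CPM in Cd3g-zero cells. The replicates went opposite ways. In the Cd3g-positive cells of replicate 2, 321 of 333 UMIs lay in 1 cell, and in the Cd3g-zero cells of replicate 1, 202 of 470 UMIs lay in 1 class II-rich cell. Over all lymphocytes, 13 and 9 cells had a Gzmc UMI, with a median of 19 and a highest value of 321 UMIs per positive cell. These were 23.2% and 21.4% of the lymphocytes, while 0.702% and 0.975% of C1q-high barcodes had a Gzmc UMI, at median depths of 4663 and 6480 UMIs.

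Gzma and Gzmc were seldom seen in the same cell. Of 23 cells with Gzma and 22 with Gzmc, 1 had both. Without the class II-rich cells these counts were 21, 19 and 1. Median depths were 3281 UMIs in cells with Gzma and 4631 in cells with Gzmc. Gzma went with the activating Ly49 receptors, as 17 of its 23 cells had Klra4 or Klra8, whereas 3 of 22 Gzmc cells did. The 17 cells were 14 of 16 Gzma cells in replicate 1 and 3 of 7 in replicate 2. Cd3g was found in 1 of 23 cells with Gzma and in 7 of 22 cells with Gzmc, and 0 of the 18 cells with a CD8 chain had Gzmc. Without the class II-rich cells, Klra4 or Klra8 was found in 15 of 21 cells with Gzma and in 2 of 19 with Gzmc. Likewise Cd3g was found in 1 of 21 and 7 of 19, and 0 of 16 cells with a CD8 chain had Gzmc.

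The genes lie on different chromosomes, Gzma at chr13:113093825-113100981 and Gzmc at chr14:56231441-56234656 (GRCm38, both on the minus strand). The 250 bases before their start sites are shown because Gzma and Gzmc were seldom seen in the same lymphocyte. They come from RefSeq (GRCm38.p6, minus strand, chr13:113100982-113101231 and chr14:56234658-56234907) and are written 5′ to 3′ along the gene, with matches to the RUNX core TGTGGT or its reverse complement ACCACA in capitals.
Gzma: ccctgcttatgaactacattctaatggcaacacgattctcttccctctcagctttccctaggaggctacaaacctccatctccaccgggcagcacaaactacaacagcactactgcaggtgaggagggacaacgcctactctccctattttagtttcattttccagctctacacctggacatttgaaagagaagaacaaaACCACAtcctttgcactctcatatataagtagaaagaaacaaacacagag
Gzmc: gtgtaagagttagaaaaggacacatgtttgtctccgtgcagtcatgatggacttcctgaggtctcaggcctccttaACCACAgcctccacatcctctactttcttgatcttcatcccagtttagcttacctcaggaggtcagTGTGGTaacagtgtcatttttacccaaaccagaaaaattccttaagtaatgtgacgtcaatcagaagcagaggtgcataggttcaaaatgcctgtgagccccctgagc
The Gzma window held 1 match and the Gzmc window 2, on either strand. Of 32851 promoter windows of this length, 14.0% held at least 1 match. The T-box core GGTGTG, searched on both strands, had 0 matches in both windows and was held by 16.3% of all windows. A match is a run of letters and is not evidence of binding.

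**Figure D4:**
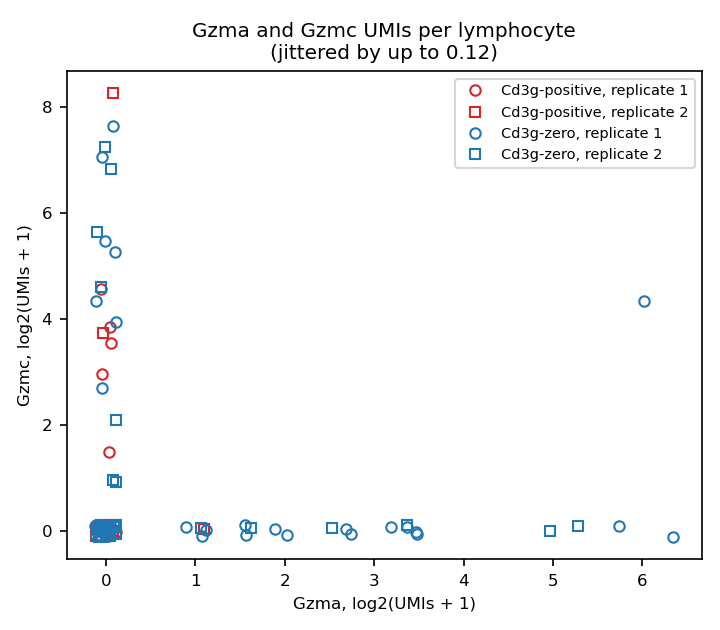
Gzma (x axis) against Gzmc (y axis) as log2(UMIs + 1) in each lymphocyte, red for Cd3g-positive and blue for Cd3g-zero cells, circles for replicate 1 and squares for replicate 2, shifted at random by up to 0.12. Of 23 cells with Gzma and 22 with Gzmc, 1 lies away from both axes.

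Gzmb, the granzyme that cleaves caspases, sat between the others. It had 468 and 99.0 CPM in Cd3g-positive cells and 402 and 262 CPM in Cd3g-zero cells, with opposite directions in the replicates. It was seen in 29 lymphocytes, of which 13 had Gzma and 9 had Gzmc. Gzmb and Gzmc belong to a cluster of similar granzyme genes on chromosome 14, and reads of near copies such as Gzmd to Gzmg could be split between them. The granule inhibitors Serpinb9 and Serpinb6b, which protect cells from their own proteases, were present in both subsets: Serpinb9 had 147 and 211 CPM in Cd3g-positive cells and 232 and 337 CPM in Cd3g-zero cells. Cst7, an inhibitor of granule cathepsins, had 120 and 124 CPM in Cd3g-positive cells, against 182 and 365 CPM in Cd3g-zero cells. Of 22 genes of the granule list, 10 had at least 20 UMIs, not counting the selecting genes Nkg7 and Ctsw. Of those, 0 were at least 2-fold higher in Cd3g-positive cells in both libraries and 1 was lower (Gzma). With shares over all genes of 1.13% higher and 1.64% lower, a low count is usual for so short a list. The summed list, without Nkg7 and Ctsw, had a log2 ratio of -1.03 in replicate 1 and -0.31 in replicate 2, and with the cell of most granule UMIs left out of each subset the mean was -1.29 in place of -0.67.

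Of the chemokines, Ccl5 was found in most cells of both subsets. Ccl5, a chemokine for T cells and monocytes, had 5794 and 5744 CPM in Cd3g-positive cells and 4852 and 5504 CPM in Cd3g-zero cells, with little between the subsets. It was seen in 49 of 56 and 33 of 42 lymphocytes, which is 87.5% and 78.6%. Thinned to 1000 UMIs the shares were 77.2% and 72.1%, against 11.2% and 6.53% of C1q-high barcodes. Free RNA held 358 and 285 CPM.

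Xcl1, the ligand of the receptor on cross-presenting dendritic cells, was one of the selecting genes. It had 2556 and 1498 CPM in Cd3g-positive cells and 3057 and 3557 CPM in Cd3g-zero cells. All 22 cells with Gzmc and 19 of 23 with Gzma had an Xcl1 UMI, against 8 of the 18 cells with a CD8 chain. Over all lymphocytes Xcl1 was seen in 77 of 98, or 78.6%, so the Gzma cells, at 82.6%, lay near that share. The rule itself favours cells with Xcl1. Ccl5 was seen in 82 of all 98 lymphocytes. Ccl5 was found in all 23 cells with Gzma, in 14 of 22 with Gzmc and in 14 of 18 with a CD8 chain. Leaving out the class II-rich cells, Xcl1 was found in all 19 cells with Gzmc, and Ccl5 in 13 of them.

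Ifng, which encodes interferon gamma, differed in direction between the libraries. It had 241 and 198 CPM in Cd3g-positive cells, against 69.0 and 300 CPM in Cd3g-zero cells. Single cells weighed heavily: 1 Cd3g-zero cell of replicate 2 held 21 Ifng UMIs, and 1 Cd3g-positive cell of replicate 1 held 10. The median was 1 UMI per Ifng-positive cell in each library, so the higher level of each library rests largely on 1 cell. Ccl4 had 241 and 879 CPM in Cd3g-positive cells and 170 and 880 CPM in Cd3g-zero cells, and 61 of its 71 UMIs in Cd3g-positive cells of replicate 2 lay in 1 cell. Ccl4 levels were higher in C1q-high barcodes (2974 and 1565 CPM), so it does not mark the lymphocytes. The cytokine list had 19 genes, of which 6 had at least 20 UMIs and 0 differed at least 2-fold in both libraries. That is near the shares over all genes, 1.13% higher and 1.64% lower, so it says little about cytokines.

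Type 2 and type 17 genes came mostly from single cells, chosen here after their values were seen. In replicate 2, 1 Cd3g-zero cell held all 12 Il13 UMIs and 13 of the 18 Csf2 UMIs of the lymphocytes. In replicate 1, 1 Cd3g-positive cell held 10 of 11 Il17a UMIs. Another Cd3g-positive cell of replicate 1 had 6 of the 8 UMIs of Il1rl1, the receptor for interleukin 33, with 2 UMIs of Gata3. Il13 was seen in 1 lymphocyte, Il17a and Il1rl1 in 2 each and Csf2 in 4. These 3 cells had 0 UMIs of Nkg7, Ctsw, Xcl1, Gzma, Gzmb and Gzmc, and met the rule through 8, 3 and 3 UMIs of Il2rb alone. So they lack the cytotoxic transcripts the lymphocytes are named for, and no other lymphocyte lacked all of Nkg7, Ctsw and Xcl1.

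No activation gene with at least 20 UMIs passed 2-fold in both libraries. Nr4a2, an early nuclear receptor of antigen-stimulated cells, had 482 and 359 CPM in Cd3g-positive cells and 439 and 337 CPM in Cd3g-zero cells. Tnfrsf9, which encodes the costimulatory receptor 4-1BB, had 294 and 173 CPM in Cd3g-positive cells, against 201 and 328 CPM in Cd3g-zero cells. Tnfrsf18, which encodes GITR, had 228 and 223 CPM in Cd3g-positive cells, against 289 and 534 CPM in Cd3g-zero cells. The checkpoint and activation list had 20 genes, of which 9 had at least 20 UMIs and 0 differed at least 2-fold in both libraries, where the shares over all genes of 1.13% and 1.64% would also give about 0 of 9. Pdcd1, which encodes PD-1 and had too few UMIs for that count, had 2 and 9 UMIs in 2 and 3 Cd3g-positive cells, against 0 UMIs in Cd3g-zero cells. Of the 9 UMIs in replicate 2, 6 lay in 1 cell, and Pdcd1 was named after its values were seen.

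Among transcription factors, Irf8 stood out. It had 93.7 and 297 CPM in Cd3g-positive cells, against 785 and 655 CPM in Cd3g-zero cells, a mean log2 ratio of -1.99 ± 1.26 (SD, n = 2). Irf8, which dendritic cells and NK cells use, was seen in 7 of 36 Cd3g-positive cells and 44 of 62 Cd3g-zero cells, and in 21 of 23 cells with Gzma. The Cd3g-zero level exceeded that of dendritic barcodes, at 320 and 314 CPM, and of free RNA, at 136 and 112 CPM. Without the class II-rich cells Irf8 was still seen in 19 of 21 cells with Gzma. Of 18 transcription factors on the list, 10 had at least 20 UMIs, and Irf8 was the only one of these to differ at least 2-fold in both libraries. A low count is usual here too, as 1.13% of all genes were higher and 1.64% lower.

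The T-box factors of cytotoxic cells were sparse. Eomes had 13.4 and 37.1 CPM in Cd3g-positive cells, against 75.3 and 84.2 CPM in Cd3g-zero cells, and the replicate 2 values are 3 and 9 UMIs, whose ratio is under 2-fold with the prior of 1 UMI. Tbx21, which encodes T-bet, had 26.8 and 124 CPM in Cd3g-positive cells and 87.9 and 122 CPM in Cd3g-zero cells. Gata3 had 134 and 61.9 CPM in Cd3g-positive cells, against 18.8 and 46.8 CPM in Cd3g-zero cells, with 2-fold passed in replicate 1 only. Id2, a regulator that innate lymphocytes need, was abundant in both subsets, at 1606 and 978 CPM in Cd3g-positive cells and 1638 and 1170 CPM in Cd3g-zero cells. Free RNA held 941 and 971 CPM of Id2.

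No tissue residence gene with at least 20 UMIs passed 2-fold in both libraries either. Cxcr6, a chemokine receptor of resident lymphocytes, had 268 and 111 CPM in Cd3g-positive cells, against 62.8 and 103 CPM in Cd3g-zero cells, so the gap was past 2-fold in replicate 1 only. Itgae, which encodes CD103, had 107 and 61.9 CPM in Cd3g-positive cells and 132 and 46.8 CPM in Cd3g-zero cells. The residence and traffic list had 23 genes, of which 16 had at least 20 UMIs and 0 differed at least 2-fold in both libraries, again near the shares over all genes. The same held for all 5 cytokine receptor genes and all 10 cell cycle genes with at least 20 UMIs. Il2rb, the selecting gene that encodes the shared receptor chain for interleukins 2 and 15, had 455 and 334 CPM in Cd3g-positive cells and 289 and 534 CPM in Cd3g-zero cells. Stmn1, a microtubule regulator of dividing cells, had 401 and 545 CPM in Cd3g-positive cells and 207 and 403 CPM in Cd3g-zero cells, and 42 of its 44 UMIs in the Cd3g-positive cells of replicate 2 lay in the cell with 321 Gzmc UMIs.

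Beyond the lists, Ly6c2, a surface antigen of memory CD8 T cells and monocytes, was higher in Cd3g-positive cells, at 468 and 631 CPM, against 100 and 215 CPM in Cd3g-zero cells. Ramp3, Gtf2i and Gramd3 were also higher, with mean log2 ratios of 2.70, 2.37 and 2.16, each from 34 or fewer UMIs. Ramp3 rested on 5 Cd3g-positive cells, free RNA held 54.0 and 176 CPM of it, and its log2 ratio was 0.62 where at least 5 UMIs of the selecting genes were asked for. Ifitm1 met the same rule through the prior alone, having 0 UMIs in both subsets of replicate 1 and all 23 UMIs of Cd3g-positive cells in 1 cell of replicate 2, so no ratio is given here. Car2, a carbonic anhydrase, was lower in Cd3g-positive cells, at 93.7 and 161 CPM, against 364 and 693 CPM in Cd3g-zero cells. Tuba4a, a tubulin, was lower too, at 80.3 and 37.1 CPM in Cd3g-positive cells and 314 and 281 CPM in Cd3g-zero cells. Klri2, Arl4d, Tubb2a and Ddx6 completed the 10 lowest with Gzma, Klra4, Klra8 and Irf8, and rest on few UMIs: 1, 1, 1 and 4 in Cd3g-positive cells, against 24, 29, 20 and 30 in Cd3g-zero cells. Free RNA held more Tuba4a, Tubb2a and Ddx6 than the Cd3g-positive cells in both libraries.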

How the data were processed

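UMI counts per gene and barcode were deposited by the authors for all 737280 barcodes of each library, prepared with 10x Genomics 3′ chemistry version 2 per the labels' protocols and made with Cell Ranger 2.2.0 on build mm10, per the submitters' processing notes. Counts of 27998 genes were used as deposited. Barcodes were kept and chosen by the rule given above. Dendritic barcodes had at least 3 UMIs over Flt3, Zbtb46, Cd209a, Xcr1 and Clec9a and no lymphocyte or C1q call, and C1q-high barcodes had at least 0.1% C1q UMIs. Doublets were not removed, but leaving out the highest Scrublet scores (scanpy 1.11.5) was an alternative.

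Counts were summed per subset and library as CPM. No test was run, since there is 1 group and the rule used the contrasts. Members and the 11 gene lists were chosen with earlier results of these data known. Named are list genes with at least 20 UMIs, the 10 highest other genes with at least 50 UMIs, and the 10 largest ratios each way between subsets, at 2-fold in both libraries, leaving out ribosomal, mitochondrial, Gm- and Rik-named genes. Co-detection was counted per cell and thinning to 1000 UMIs was computed exactly. Positions are from GENCODE on GRCm38. Alternatives were other limits on UMIs, mitochondrial share, selecting genes and myeloid genes, doublets, class II-rich cells, the split gene, normalization and each library left out (Python 3.11.15, numpy 2.4.6, scipy 1.17.1).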

Additional observations from a re-analysis of the deposited data

How the results depend on the processing

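The lymphocyte share stayed between 2.45% and 3.20% under 9 other limits on cells, and was 2.49% or 3.16% with a library left out. The Cd3g-positive share was 44.9% when split by any CD3 chain and 22.6% with cells thinned to 1000 UMIs, which follows from how each counts detection, and 33.9% to 40.5% over the libraries left out. The T cell receptor list kept a positive log2 ratio of Cd3g-positive over Cd3g-zero cells, at 1.13 to 2.34 with a library left out. The NK receptor list, -0.85 in the main setting, was -1.30 as a mean of log2 values per cell, -1.05 without its 8 genes also at 10 CPM or more in C1q-high barcodes (chosen after the data were seen), and -0.99 to -0.72 with a library left out. The granule list, -0.67 in the main setting, was -1.45 with Lyz2 under 0.1% and C1q under 0.03%, and -1.29 with the top cell of each subset left out (added after seeing the data); over the libraries left out it was -1.03 to -0.31. Ifitm1 turned to -0.40 without members holding 3 dendritic or B marker UMIs and to -0.43 without those holding 10 or more H2-Aa UMIs, since its UMIs sat in few cells. No paired test was run, as no result here comes from a test. The log2 ratios between subsets were taken within each library. The fold values with an interval or bound, for Cd8b1, Gzma, Klra4 and Klra8, were pooled over both libraries. With 98 cells and medians of 3286.5 and 3809 UMIs per cell, genes near 20 UMIs rest on few cells.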
